A study of Mus musculus with 66 samples.

Results

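Histone turnover in cultured mouse cortical neurons was read with CATCH-IT in neurons depolarised with KCl for 5 hr and in unstimulated neurons at 5 hr. The members are all 53020 regions that the authors listed for this comparison, of 57678 regions listed in the deposited tables of the series. The neurons were primary cortical cells of C57bl/6 mice, taken from embryos at E16.5 and used after 8 days in vitro. Each group had 3 CATCH-IT libraries and 3 input libraries, and the labels describe the culture experiments as biological triplicates. The series asked how neuronal activity changes histone turnover in the nervous system. The labels name no difference between the groups other than KCl, and no transgene or deletion in either. In the library names the KCl CATCH-IT libraries carry lane 1 and the control CATCH-IT libraries lane 5, so lane and treatment cannot be told apart. The listed regions hold no measure of expression, so the label of cortical neurons was not checked against marker genes. In such cultures a change in the share of a cell type and a change of turnover within a cell type cannot be told apart.

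In CATCH-IT, cells are given a methionine analogue for a short time, newly made histones carry it, and a biotin tag coupled to the analogue lets nucleosomes with new histones be captured on streptavidin. DNA that comes with them marks places where old nucleosomes have been exchanged for new ones. Neurons no longer divide, so new histones enter their chromatin outside replication, largely as the variant H3.3 placed by the chaperones HIRA and ATRX-DAXX. KCl opens voltage-gated calcium channels and switches on activity-dependent genes, first the immediate-early transcription factors and later effectors such as Bdnf. A region is called gained where the KCl mean exceeded the control mean, and lost where the control mean was higher.

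Sequences of 6 regions are shown to make clear what a member is, the first 3 per direction of at most 300 bp, outside UTRs. They were taken in the order of the authors' adjusted p, with ties by larger difference of means, among regions without overlap between groups. Sequences are from the mm9 genome, forward strand, with CG dinucleotides in capitals. The 3 gained regions lay at 6820431F20Rik (chr8:20019961-20020160), Cntnap4 (chr8:115365121-115365360, intron) and Pknox2 (chr9:36719241-36719440, intron). The 3 lost regions lay in introns of Prkar1a (chr11:109519821-109520120), Whsc1l1 (chr8:26729001-26729260) and Plcb1 (chr2:134852081-134852360).
6820431F20Rik: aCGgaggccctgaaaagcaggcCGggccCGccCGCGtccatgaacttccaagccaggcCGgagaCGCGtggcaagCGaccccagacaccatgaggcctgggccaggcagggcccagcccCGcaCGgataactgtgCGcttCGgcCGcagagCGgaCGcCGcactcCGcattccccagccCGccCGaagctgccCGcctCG
Cntnap4: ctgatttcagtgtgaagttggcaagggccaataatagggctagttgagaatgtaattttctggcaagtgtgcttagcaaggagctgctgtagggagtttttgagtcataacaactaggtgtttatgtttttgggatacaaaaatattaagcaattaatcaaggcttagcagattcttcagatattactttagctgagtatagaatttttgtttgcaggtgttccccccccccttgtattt
Pknox2: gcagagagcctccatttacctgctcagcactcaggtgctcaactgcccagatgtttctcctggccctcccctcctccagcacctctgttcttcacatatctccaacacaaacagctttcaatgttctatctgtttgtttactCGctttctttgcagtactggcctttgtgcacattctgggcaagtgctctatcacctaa
Prkar1a: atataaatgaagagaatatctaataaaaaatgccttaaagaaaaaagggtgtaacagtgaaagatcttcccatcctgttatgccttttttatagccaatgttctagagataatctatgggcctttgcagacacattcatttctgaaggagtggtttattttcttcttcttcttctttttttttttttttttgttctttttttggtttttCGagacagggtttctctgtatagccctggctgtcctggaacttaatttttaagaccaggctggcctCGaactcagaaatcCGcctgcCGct
Whsc1l1: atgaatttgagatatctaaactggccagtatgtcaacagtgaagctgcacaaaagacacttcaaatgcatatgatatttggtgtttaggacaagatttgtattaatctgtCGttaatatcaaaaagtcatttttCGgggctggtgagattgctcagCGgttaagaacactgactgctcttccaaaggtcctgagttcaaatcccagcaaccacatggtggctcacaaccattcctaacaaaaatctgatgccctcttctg
Plcb1: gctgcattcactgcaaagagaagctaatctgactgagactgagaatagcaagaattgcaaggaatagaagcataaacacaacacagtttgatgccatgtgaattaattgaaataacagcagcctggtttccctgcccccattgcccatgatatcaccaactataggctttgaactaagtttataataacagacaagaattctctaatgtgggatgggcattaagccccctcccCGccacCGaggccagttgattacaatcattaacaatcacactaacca
Their base composition had a wide range. The region at 6820431F20Rik was 72% G or C with 22 CG dinucleotides, whereas the gained region in Cntnap4, a neurexin-family adhesion gene, was 38.3% G or C with 0. The lost regions held 2 to 4 CG dinucleotides. All 3 gained regions had the same values, 8.02, 3.20 and 24.5 normalised reads in the KCl libraries and 0 in every control library. Prkar1a, a regulatory subunit of protein kinase A, had 0.63, 8.32 and 24.8 in the control libraries, and Plcb1, a phospholipase C, had 2.21, 16.6 and 14.2. Both were at 0 in every KCl library, and the lack of overlap in these examples follows from how they were chosen.

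Nearly every listed region was present in 1 group and empty in the other. Of the regions, 30359 were gained and 22661 were lost, which is 57.3% gained (95% exact Clopper-Pearson interval 56.8 to 57.7%). The control group had no read in any of its 3 libraries in 29282 gained regions (96.5%), and the KCl group had none in 22519 lost regions (99.4%). All 3 KCl values were above 0 and above all 3 control values in 30009 gained regions, 56.6% of all listed regions. Of the lost regions, 22613 were free of overlap in the same way, 42.6% of all. The groups overlapped in 398 regions. The adjusted p-values in the authors' deposited table ran from 4.94e-08 to 0.0096, so that 100% were at or under 0.05 and an adjusted p separated no members from others. Changes under 3-fold were not listed, and a gene without a region was not shown to be unchanged.

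The levels rested on few reads, and the libraries of a group often differed widely. The median KCl mean of gained regions was 5.72 normalised reads, and the median control mean of lost regions was 6.80. The packed values were whole multiples of 1 step per library within 0.1 of a read, so the reads behind each value could be recovered. A read was worth 1.34, 0.533 and 2.72 in the 3 KCl libraries and 0.316, 1.39 and 1.18 in the 3 control libraries. The input libraries had too few reads for a finite ratio in both groups in all but 8.68% of regions. In 4593 of those 4601 the ratio to input had the direction of the means. That was largely fixed beforehand, since a group mean of 0 gives a ratio of 0. In 97.7% of all listed regions the other group was at 0 in all 3 libraries. Gained regions held a median of 17 reads over the 3 KCl libraries (range 6 to 516). Lost regions held a median of 21 over the 3 control libraries (range 13 to 167). Within a region the SD over the 3 libraries of the higher group was a median of 0.723 times the mean in gained and 0.882 times the mean in lost regions. The library with most reads held at least 50% of a region's reads in 76.2% of gained and 70.5% of lost regions. Intervals here cover counting of regions only. They treat regions as independent and leave out variation between libraries and cultures. Reads without molecular identifiers are also not independent molecules.

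Reads per library were not spread smoothly but piled up at 6 and at 12. The name of the deposited table points to a duplicate setting of 6. In lost regions the third control value was exactly 12 reads in 67.6% of regions, and the library with most reads held exactly 12 in 80.6%. In gained regions the library with most reads held exactly 12 in 22.8%, and exactly 6 in 16.3%. Exactly 6 reads in each of the 3 libraries was the most frequent combination of lost regions, with 2005 of them, and it occurred in 1573 gained regions. A combination of 1, 12 and 1 reads was the most frequent of gained regions, with 1825. At least 1 library of the higher group was at a multiple of 6 reads in 59.6% of gained and 94.8% of lost regions. The part of these stacks in the results was not tested beyond the values given below.

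**Figure D1:**
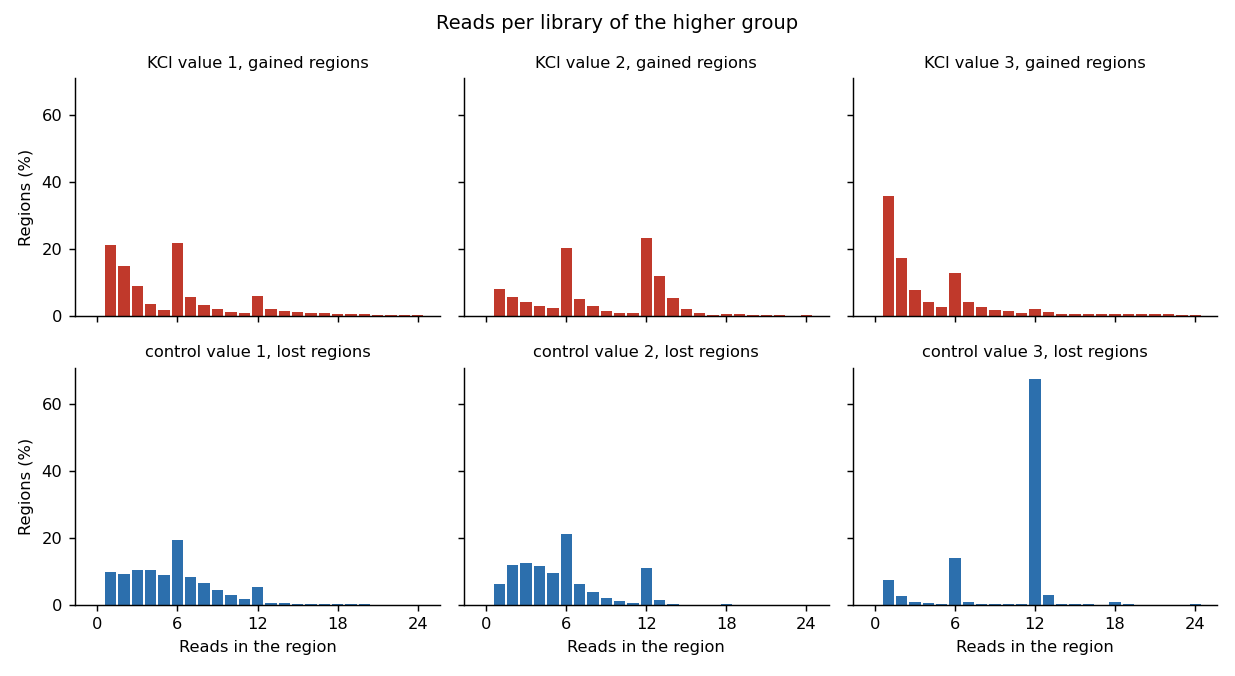
Percent of regions (y axis) by the number of reads recovered in the region (x axis), for each of the 3 KCl values in gained regions (top) and each of the 3 control values in lost regions (bottom). Bars stand out at 6 and 12 reads, most of all in the third control value, which is at exactly 12 reads in 67.6% of lost regions.

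The balance between gained and lost regions depended on the reads required. Among the 25539 regions with at least 3 reads in every library of the higher group, 11005 were gained and 14534 lost, so the gained share fell to 43.1% and the majority turned. Among the 25615 regions with a normalised value of at least 2 in every such library the gained share was 73.2%. Leaving out every region with a library at a multiple of 6 reads kept 13439 regions, of which 91.3% were gained. Of the 21705 regions at or under 0.00001 by the adjusted p of the authors' deposited table, 84.1% were gained. By the reads in the higher group, the gained share was 100% in regions of 6 to 12 reads, 70.8% at 13 to 17, 41.2% at 18 to 24, 35.4% at 25 to 36 and 85.8% at 37 or more. No lost region had fewer than 13 reads. The larger number of gained regions is therefore given as a count of the list and not as a direction of turnover. Leaving out a library could hardly move this share (57.1 to 57.3%), because the listed regions were chosen on these libraries and the other group was at 0 in all 3 libraries in 97.7% of them.

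Turnover regions of both directions lay in the same kinds of places. By the authors' annotation 20667 regions lay in gene bodies, 20920 in other intergenic sequence and 8648 in gene deserts. The 3 promoter classes held 2714 regions (5.12%), and 71 were pericentromeric. Gene bodies took 39.0% of gained and 38.9% of lost regions, and gene deserts 16.19% and 16.47%. The gained share in gene bodies was 57.3%, within the interval of that in other intergenic sequence (57.2%, interval 56.6 to 57.9%). The 218 regions at proximal promoters were 58.7% gained (interval 51.9 to 65.3%). Of the 71 pericentromeric regions 51 were gained (71.8%, interval 59.9 to 81.9%), the highest share of these classes. Some of them lay close together on chromosome 9, so the interval, which treats them as independent, is too narrow.

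Per Mb of genome the regions were slightly denser near gene starts. Within 1 kb of the start of a protein-coding gene (GENCODE vM1) there were 23.8 regions per Mb, against 21.6 at 30 to 100 kb and 17.4 beyond 300 kb. Protein-coding genes covered 38.8% of the genome and held 43.7% of the regions, 23.4 per Mb inside genes against 19.0 outside. The gained share was 57.2% inside and 57.3% outside. Along gene bodies from start to end, the first 10% of the span held 1398 regions and each further 10% held 1957 to 2235, with the promoter classes counted apart. Gained and lost regions followed the same course, 6.81% of gained and 6.70% of lost gene body regions lying in the first 10%.

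The autosomes carried the regions evenly, and chromosome X carried fewer. Autosomes had 21.5 regions per Mb of sequence without N, from 19.6 on chromosome 14 to 24.6 on chromosome 11. Chromosome X had 1589 regions, 9.80 per Mb, which is 0.457 times the autosomal density (interval 0.434 to 0.480). This held for both directions, with ratios of 0.463 for gained and 0.448 for lost regions. Chromosome X was 39.2% G or C, below every autosome (40.5 to 43.8%). At 40 to 45% G or C it had 11.1 regions per Mb against 22.3 on autosomes, and at 35 to 40% it had 9.42 against 18.7, and over 5 classes of composition from 30 to 55% the ratio was 0.427 to 0.505. The labels used here give no sex of the embryos. Chromosome Y had 24 regions on 2702555 bases without N.

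**Figure D2:**
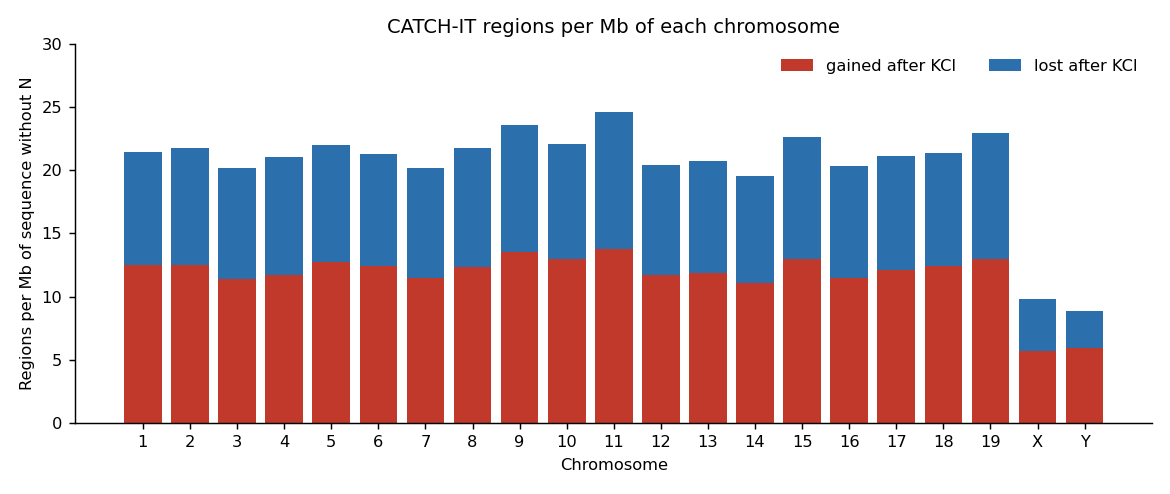
Regions per Mb of sequence without N (y axis) for each nuclear chromosome (x axis), stacked as gained (red) and lost (blue) after KCl. Autosomes reach 19.6 to 24.6 per Mb and chromosome X 9.80.

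The gained share hardly differed between chromosomes. It ran from 55.5% on chromosome 4 (interval 53.8 to 57.3%) to 58.8% on chromosome 10 (interval 56.9 to 60.6%), and it was 58.0% on chromosome X (interval 55.6 to 60.5%). Mitochondrial DNA, which is not packed in nucleosomes, had 11 listed regions, all with reads in both groups. Of these, 7 were gained and 4 were lost.

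Genes with many regions were mostly long. At a promoter or in the body of 9128 named genes lay 23381 regions, 44.1% of all. Of the genes, 4608 had 1 region, 3716 had 2 to 5 and 804 had 6 or more. The 311 genes with 10 or more held 20.3% of these regions. The mean number rose from 1.11 in genes of up to 10 kb to 3.99 at 100 to 300 kb and 23.4 over 1 Mb. Over the 9128 genes the logarithms of span and of region number had a Pearson r of 0.68. That is a description across genes that have at least 1 region, and genes are not independent replicates. Counted over all 22225 protein-coding genes of GENCODE vM1, 20.3% of genes of up to 30 kb had a region and 99.8% of genes over 300 kb. The density was 25.5 regions per Mb in the former and 21.5 in the latter, so long genes collected more regions without being denser.

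**Figure D3:**
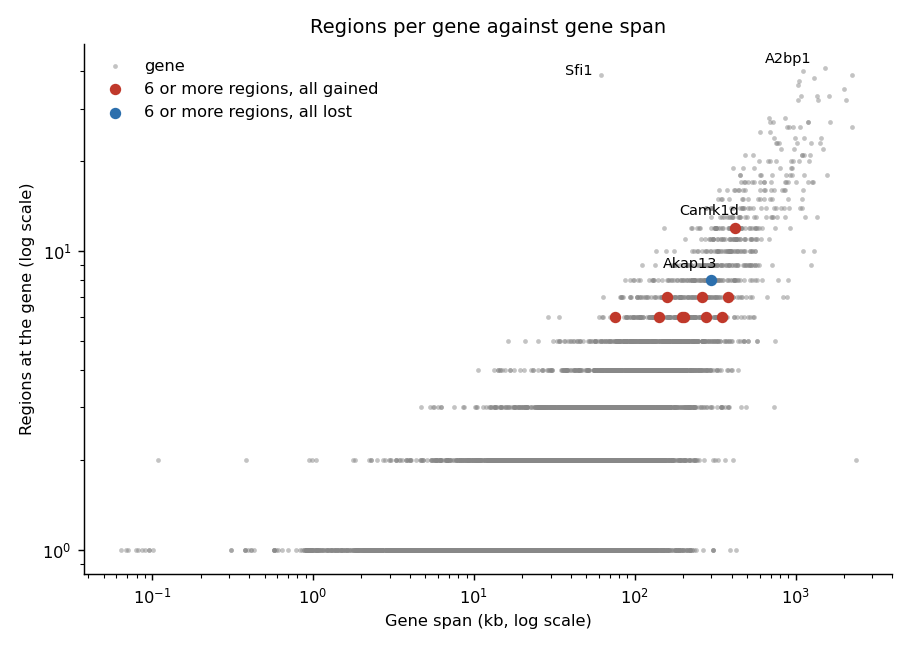
Regions at a gene (y axis, log scale) against gene span in kb (x axis, log scale) for the 9128 genes with at least 1 region. Red and blue points are genes with 6 or more regions that were all gained or all lost, and Sfi1, with 39 regions at its promoter or in its span of 61.6 kb, lies far above genes of like span.

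The 14 genes with the most regions each held both directions. A2bp1, the older name of the neuronal splicing factor Rbfox1, had 41 regions, 26 gained and 15 lost over 1528 kb of the authors' annotation. In GENCODE vM1 the span of Rbfox1 is 603 kb and held 15 regions, 8 gained and 7 lost, so the rank of this gene depends on the annotation. Auts2, a neurodevelopmental gene, had 40, of which 15 were gained and 25 lost. Cntnap2, a neurexin-family adhesion gene, had 21 gained and 18 lost regions, and Nrxn3, a presynaptic neurexin, had 19 and 13. The cAMP phosphodiesterase gene Pde4d had 23 gained and 15 lost. Dlg2, which encodes the postsynaptic scaffold PSD-93, had 16 and 17, and Accn1, an acid-sensing ion channel, had 21 and 12. In Cdh13, a cadherin, 22 were gained and 10 lost, and in Fhit, a nucleotide hydrolase, 22 and 11. Rbms3 (37 regions), 1700112E06Rik (36), Macrod2 (35) and Lrp1b (32) were close to an even split, with 42.9 to 54.1% gained. Apart from Sfi1, described below, these genes had 1.56 to 3.62 regions per 100 kb.

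Among the 55 genes with 20 or more regions all had both directions. Their gained share had a median of 58.3%, close to that of the whole list, and ran from 37.5% in Auts2 to 80.0% in Gpc6, a glypican, with 16 of 20 regions gained. Within genes, 51.0% of all pairs of regions shared a direction, against 51.1% of all pairs of regions in the table. Regions of the same gene were thus no more alike in direction than regions anywhere.

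**Figure D4:**
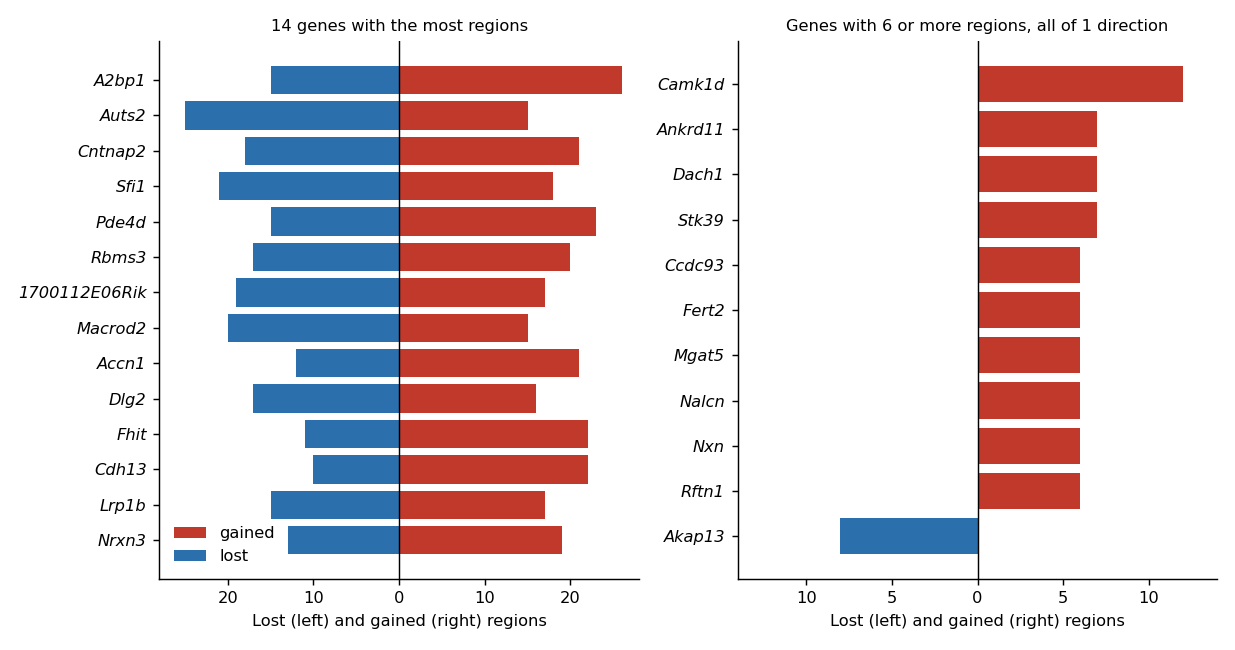
Number of lost (blue, left) and gained (red, right) regions in the 14 genes with the most regions, where the last rank is shared by 3 genes, and in the 11 genes with 6 or more regions that were all of 1 direction. The 14 genes hold both directions, and 10 of the 11 single-direction genes hold gained regions only.

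Few genes had many regions of a single direction. Of the 804 genes with 6 or more regions, 10 had gained regions only (1.24%) and 1 had lost regions only (0.124%), and the other 793 were mixed. Camk1d, a calcium/calmodulin-dependent kinase, had the most, 12 gained and 0 lost over chr2:5214502-5635709. Akap13, an anchoring protein for protein kinase A, was the gene with lost regions only, 8 over chr7:82600419-82899494. Ankrd11, a chromatin regulator, Dach1, a transcription factor, and Stk39, a kinase that acts on chloride cotransporters, had 7 gained regions each. Another 6 genes had 6 gained regions each, Ccdc93, Fert2 (a tyrosine kinase), Mgat5 (an N-glycan branching enzyme), Nalcn (the sodium leak channel), Nxn (nucleoredoxin) and Rftn1 (a lipid raft protein). With a minimum of 5 regions 26 genes were all gained and 9 all lost, and with 8 there was 1 of each.

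In Camk1d the 12 regions lay in introns, from 23.0 to 380 kb behind the gene's start, and 5 of them lay between 363 and 380 kb. The 3 KCl values ran from 1.34 to 8.02, 1.07 to 7.99 and 2.72 to 46.2 over the regions, with medians of 2.67, 6.92 and 5.44. All 3 control values were 0 in each of the 12, as in 96.5% of all gained regions, so the groups did not overlap. The highest region (chr2:5272561-5272940) had 8.02, 3.20 and 46.2 in the KCl libraries, a mean of 19.1 ± 23.6 (SD, n = 3), and the third library carried most of it. Reads numbered 9 to 29 per region, 5 regions had a library at exactly 6 or 12 reads, and 3 regions had at least 3 reads in every KCl library. Among the 43 genes with 12 regions the number gained ran from 3 to 12, with a median of 7 and 11 as the next highest.

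In Akap13 the 8 regions had control values of 0.32 to 3.79, 1.39 to 16.6 and 1.18 to 14.2, with medians of 2.21, 8.32 and 7.10. All KCl values were 0, as in 99.4% of all lost regions. Every 1 of the 8 had a library at exactly 6 or 12 reads. The region nearest the start (chr7:82635721-82636000, intron) had 2.84, 6.93 and 14.2. Of the 8 regions 5 lay in introns by GENCODE vM1, and the others touched a UTR or exon. The second control library was highest in some regions and the third in others, and the first was lowest in most. Of the 97 genes with 8 regions, none other lacked a gained region, and the number gained had a median of 5. Requiring 3 reads in every library left Camk1d with 3 and Akap13 with 4 regions. Under that requirement 241 genes kept 6 or more, of which 1 was all gained and 6 all lost. Without regions that have a library at a multiple of 6 reads, 27 of 55 such genes were all gained and 0 all lost. Both requirements also left fewer genes to count.

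**Figure D5:**
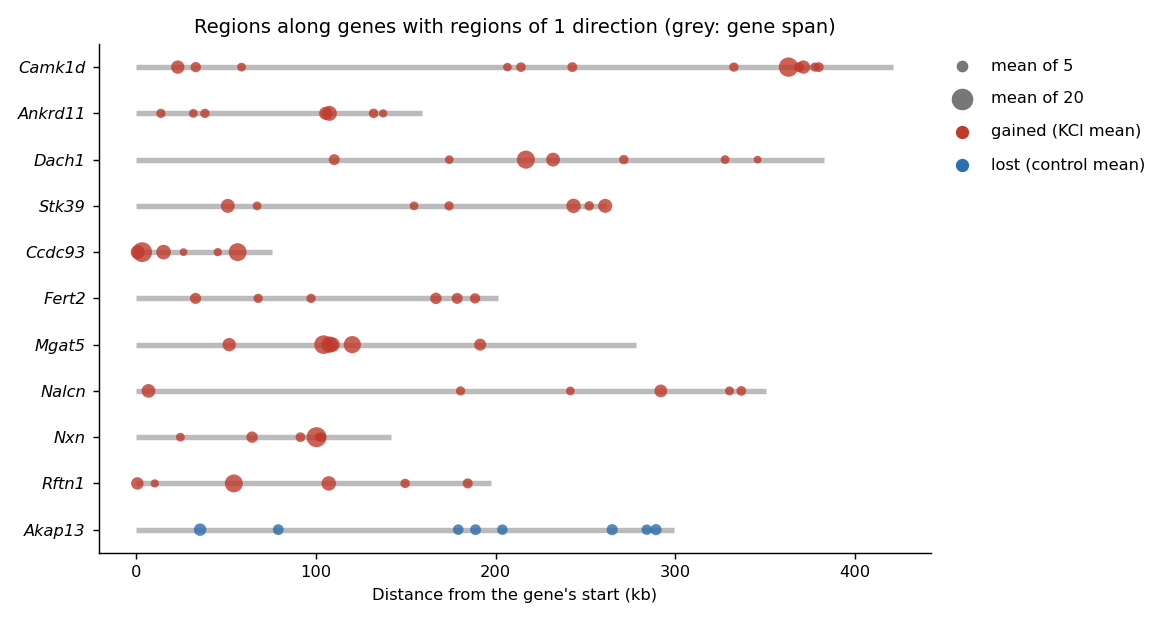
Positions of regions along the 11 genes with 6 or more regions of 1 direction, as distance from the gene's start in kb (x axis), with 1 gene per line and grey bars for gene spans. Point area grows with the mean of the higher group, red for gained and blue for lost, and the largest Camk1d point is the region with a mean of 19.1.

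The other single-direction genes had values of the same order. In Mgat5 the KCl values of the 6 regions were 2.67 to 30.7, 0.53 to 4.79 and 16.3 to 29.9, and 5 of the 6 had at least 3 reads in every KCl library, the most of these genes. In Stk39 all 7 regions had a library at exactly 6 or 12 reads. Control reads were present in 1 region each of Dach1 (highest control value 0.32), Ccdc93 (3.79) and Rftn1 (1.39). In the other single-direction genes with gained regions every control value was 0, as in 96.5% of all gained regions.

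Measured per length, Sfi1 was the densest of the genes with 5 or more regions. Sfi1 encodes a centrosomal protein and had 39 regions at its promoter or in its body. Of these, 36 touched its span of 61.6 kb (chr11:3031852-3093465), which is 58.4 per 100 kb. The other 3 lay upstream of the start, 1 of them in an intron of Drg1, a GTPase gene. Of the 39, 18 were gained and 21 lost, with gained and lost regions lying between each other along the gene. Control values of the lost regions reached 15.8, 26.3 and 35.5, and KCl values of the gained ones 9.35, 12.2 and 16.3. Reads in the other group were present in 3 of the 18 gained and 3 of the 21 lost regions. How the authors treated reads that match near-identical copies is not stated, so the count of Sfi1 is uncertain. Counted within the span in the same way, Senp8, a NEDD8 protease, had 30.5 per 100 kb, Impact, a translation regulator, 24.2, Spg20, which encodes spartin, 19.9, and Flnc, a filamin, 17.4. They were 16.4 to 28.7 kb long. Among genes with fewer than 5 regions, 184 of at most 4.71 kb reached the density of Sfi1 when promoter regions were counted, with 1 to 3 regions each. Spg20 had 5 gained regions and 0 lost. With promoters, Agfg2 had 5 gained and 1 lost, while Aspscr1 and Sdc3, a syndecan, had 1 gained and 4 lost each. Samd3 and Fer1l4 had 3 gained and 2 lost each.

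Neighbouring regions did not share a direction more than distant ones. The median gap between regions that did not overlap was 30760 bp, and 2.73% of neighbours lay within 1 kb or overlapped. Of 1289 neighbours up to 1 kb apart 51.8% had the same direction (interval 49.1 to 54.6%). The share was 51.5% at 1 to 10 kb, 51.6% at 10 to 100 kb and 50.8% beyond 100 kb, so it did not change with distance beyond its intervals. In 155 pairs the regions overlapped, and all of these pairs joined a gained with a lost region. Whether overlapping or close regions of 1 direction were merged when the list was made is not stated. The shares at short distances may depend on that, which was not tested.

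Regions were narrow and slightly richer in G and C than the genome. The most frequent length was 380 bp, in 60.8% of gained and 26.7% of lost regions, and lengths ran from 200 to 800 bp and from 200 to 740 bp. Median G and C content was 43.2% in gained regions, 42.7% in lost regions and 41.6% in genome tiles of 380 bp. Above the genome's median lay 59.1% of gained regions (interval 58.6 to 59.7%) and 56.2% of lost regions (interval 55.5 to 56.8%). Density rose from 12.0 regions per Mb in tiles under 30% G and C to 27.9 at 55 to 60%, and was 19.2 above that. The gained share was 56.1% under 30%, 54.6% at 30 to 35%, 60.4% at 55 to 60% and 61.5% above that, so it did not follow density at either end. CG dinucleotides numbered 0.904 per 100 bp in gained and 0.867 in lost regions.

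Letter strings for motifs of activity-regulated factors were about as frequent as in the genome at large. Each motif was searched as letters and reads the same on both strands. TGANTCA, a string that includes the AP-1 site (Fos and Jun proteins), was found in 11.1% of gained regions of 380 bp (interval 10.7 to 11.6%). It was in 12.0% of lost regions of that length (interval 11.2 to 12.8%) and 11.1% of genome tiles. TGACGTCA, the CREB element, was in 0.227% of gained, 0.314% of lost and 0.207% of tiles. CACGTG, an E-box, was in 4.32%, 4.03% and 3.69%. CTANNNNTAG, a looser string than the MEF2 element with any base at each N, was in 6.54%, 6.96% and 6.48%. MEF2 elements proper were not counted. The genome share lay below the interval in 2 cases, the E-box in gained regions (4.03 to 4.62%) and TGANTCA in lost regions. No motif holds the letters of another.

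Immediate-early genes, the transcription factors and regulators that neurons switch on first, had 3 regions, too few to set the list apart from other short genes. Of 22 members 3 had a region (13.6%), against 39.4% of all protein-coding genes and 20.3% of genes of up to 30 kb. The members' median span was 3.87 kb, shorter than the 7.6 kb of genes of up to 30 kb. The list had 17.1 regions per Mb over 0.175 Mb, against 25.5 for genes of up to 30 kb. All 3 regions were gained, with an interval of 29.2 to 100% that held the 57.3% of all protein-coding genes. All control values were 0, as in 96.5% of all gained regions. Atf3, a stress- and activity-induced transcription factor, had 13.4, 1.07 and 5.44 in the KCl libraries, in a region that overlaps a coding exon. Fosl2, an AP-1 subunit, had 13.4, 0.53 and 8.15, and Nr4a3, an orphan nuclear receptor, had 2.67, 7.46 and 2.72, both in introns. The second library was lowest in Atf3 and Fosl2 and highest in Nr4a3, so the 3 libraries of a group did not agree on the size. Fos, Arc, Egr1 and Npas4 had no listed region.

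Of the late-response genes 10 of 18 had a region (55.6%), where 69.7% of protein-coding genes of 30 to 100 kb had one. The list's median span was 33.3 kb, shorter than the 49.6 kb of that class. Of the late-response regions 12 were gained and 5 lost, and the interval of the gained share (44.0 to 89.7%) held that of all listed regions. Bdnf, the neurotrophin induced by activity, had 3 gained and 1 lost region, all in introns. Its gained region nearest a start, at a promoter by the authors' annotation, had 2.67, 6.39 and 5.44 in the KCl libraries (mean 4.83 ± 1.93, SD, n = 3) and 0 in the controls. A second gained one had 8.02, 3.20 and 16.3. Its lost region had 1.26, 4.16 and 14.2 in the control libraries and 0 after KCl. Homer1, a postsynaptic scaffold whose short form is induced by activity, had 2 gained and 2 lost regions. Cdkn1a, a cell cycle inhibitor, had 1 gained region with 8.02, 3.20 and 16.3. That region and the second gained one of Bdnf both had exactly 6 reads in each KCl library.

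Genes of H3.3 and of its chaperones had 16 regions in 8 of 14 members (57.1%). Of all protein-coding genes 39.4% had a region, and of those of 30 to 100 kb 69.7%. The list's median span was 31.6 kb, against 49.6 kb for that class. The 7 gained and 9 lost regions were 43.8% gained, with an interval (19.8 to 70.1%) that held the 57.3% of all protein-coding genes. The H3.3 genes H3f3a and H3f3b and the chaperone gene Daxx had none. Hira, the chaperone that places H3.3 at active genes, had 2 lost regions. Their control values were 1.89, 8.32 and 7.10 (6 reads in each library) and 0.32, 16.6 and 1.18, where 1 library held nearly all. Atrx, the remodeller that works with Daxx, had 1 lost region with 0.95, 2.77 and 14.2, and Dek, a histone chaperone, had 1 with 2.21, 13.9 and 15.4. Cabin1, a HIRA partner, and Chd2, a remodeller linked to H3.3, had 3 gained and 1 lost each. The chromatin remodellers and modifiers as a wider list had 100 regions in 29 of 37 genes (78.4%), with a median span of 66.7 kb. Their gained share was 53.0%, and its interval (42.8 to 63.1%) also held 57.3%. Among these genes were Hdac9 with 5 gained and 5 lost, Hdac4 with 7 and 2, Arid1b with 6 and 2 and Dnmt3a with 3 and 5.

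Synaptic gene lists had regions in most members, as long genes in general did. Adhesion and guidance genes had 877 regions in 64 of 66 members, 19.9 per Mb and 56.0% gained (interval 52.6 to 59.3%), with a median span of 546 kb. Genes over 300 kb as a whole had 21.5 per Mb. Ptprd, a receptor phosphatase of synapse formation, had 41 regions by its GENCODE span, 21 gained and 20 lost. Voltage-gated channels had 282 regions in 39 of 40 members (55.7% gained), led by the calcium channel gene Cacna1c with 18 gained and 8 lost. Presynaptic release genes had 120 in 21 of 26 (58.3% gained), with Rims1, an active zone scaffold, at 10 gained and 3 lost. Postsynaptic scaffold genes had 221 in 24 of 26, 62.9% gained, with an interval (56.2 to 69.3%) that held the 57.3% of all protein-coding genes. Kalrn, a guanine nucleotide exchange factor of dendritic spines, had 16 gained and 5 lost regions, and Magi2, a scaffold, 14 and 8.

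Glutamate receptors had 187 regions in 21 of 26 genes (80.8%), with a median span of 298 kb. Of all protein-coding genes of 100 to 300 kb 93.3% had a region. The gained share of the list was 51.9%, with an interval (44.5 to 59.2%) that held the 57.3% of all protein-coding genes. The metabotropic receptor gene Grm7 had 10 gained and 8 lost, and Grm8 had 8 and 9. Grin2a, the NMDA receptor subunit GluN2A, leaned the other way with 4 gained and 12 lost over 417 kb. Among genes with 16 regions by the authors' names, the number gained ran from 4 in Grin2a and 5 in March1 to 12 in Plxna4. In 1 of the lost regions of Grin2a the control values were 7.57, 15.2 and 14.2 (mean 12.3 ± 4.16, SD, n = 3), in another 7.89, 12.5 and 15.4. No KCl library had a read in either. These had the smallest adjusted p of its lost regions. Most of its lost regions had a library at a multiple of 6 reads, as did 94.8% of all lost regions. In 1 of the gained regions of Grin2a the KCl values were 10.7, 3.20 and 38.1, and no control library had a read. GABA and glycine receptors had 54 regions in 16 of 19 genes, 59.3% gained, led by Gabrb1 with 7 gained and 5 lost. Splicing and RNA-binding regulators had 123 in 18 of 20, 54.5% gained, with Celf2 at 14 and 9. The intervals of the gained share in these lists, 45.03 to 72.43% and 45.25 to 63.47%, also held 57.3%.

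Marker genes of other brain cells had regions too. Of all protein-coding genes 39.4% had a region, of those up to 30 kb 20.3%, and of those of 30 to 100 kb 69.7%. Astrocyte markers had 15 regions in 4 of 7 genes (6 gained, interval 16.3 to 67.7%). Oligodendrocyte lineage markers had 7 in 5 of 7 (3 gained, interval 9.9 to 81.6%). Endothelial or pericyte markers had 16 in 5 of 6 (12 gained, interval 47.6 to 92.7%). Microglia markers had 2 in 2 of 5 genes, both lost, in Csf1r and Itgam (gained share 0%, interval 0 to 84.2%). Each of these intervals held the 57.3% gained of all protein-coding genes. Neuron markers had 41 in 6 of 8 genes, 21 gained and 20 lost. Among astrocyte markers Slc1a2 had 3 gained and 1 lost region, Aldh1l1 2 and 4, and Slc1a3 1 and 2. Gfap, the astrocyte filament, had 0 gained and 2 lost, 1 of them with 0.95, 5.54 and 21.3 in the controls. Every KCl value of that region was 0, as in 99.4% of all lost regions. Housekeeping genes, mostly short, had 7 regions in 5 of 19. Olfactory and vomeronasal receptor genes, which serve smell, had 74 regions in 67 of 1443 genes, 13.2 per Mb with 55.4% gained. Zinc-finger genes had 24.2 per Mb (58.4% gained) and solute carriers 24.7 (57.0% gained), against 23.4 and 57.3% for all protein-coding genes. The levels of such cells' markers were not measured, and their part in the regions was not tested.

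The regions with the smallest adjusted p at a gene showed how libraries carried them. A coding exon region of Rasgrf1, a Ras exchange factor activated by calcium (chr9:89895261-89895660), had 13.4, 19.7 and 16.3 in the KCl libraries, a mean of 16.46 ± 3.17 (SD, n = 3), and 0 in every control, with an adjusted p of 4.94e-08 in the authors' deposited table. The 3 libraries were close there. The next adjusted p, 4.15e-07, was shared by 2218 genes, and the 5 named here are those with the largest difference of means. Rab3gap1, a regulator of Rab3, had 17.4, 13.3 and 59.8, Dio1, a deiodinase, had 73.5, 3.20 and 13.6, and 4933427D14Rik had 92.2, 2.13 and 2.72. In these 3, 1 library was well above the others. Myo16, a myosin, had 52.1, 3.73 and 24.5, and Mras, a Ras-family GTPase, had 44.1, 10.1 and 24.5, with a more even spread in Mras. All 5 were at 0 in every control. Among lost regions 122 genes shared the smallest adjusted p, and those named were taken in the same way. Ephb2, an Eph receptor of synapses, had 1.89, 33.3 and 22.5 in the controls over a coding exon, and Med27, a Mediator subunit, had 5.68, 22.2 and 28.4. Odz2, a teneurin, had 1.58, 8.32 and 46.1, and Diap2, an actin-nucleating formin gene on chromosome X, had 1.26, 6.93 and 46.1. In Odz2, Diap2 and Tmco7 the third control library carried most of the level.

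The highest gained and the highest lost region lay outside named genes and had reads in both groups. The gained one, a pericentromeric region of chromosome 9 (chr9:3029941-3030420), had 243, 113 and 329 in the KCl libraries and 42.6, 83.2 and 63.9 in the controls, without overlap. The highest lost region was mitochondrial, with 1.34, 13.3 and 8.15 after KCl and 33.8, 59.6 and 20.1 in the controls. The next highest lost region was at a promoter of Taar6, with 0, 4.26 and 0 after KCl and 6.94, 48.5 and 50.9 in the controls.

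Few CATCH-IT regions met an H3.3 region listed at the same time in the same kind of culture. Of the 53020 CATCH-IT and 667 H3.3 regions, 6 pairs shared at least 1 bp, which is 0.0113% of the former and 0.90% of the latter. CATCH-IT regions covered 0.734% of the genome without N and 0.51% of the bases in H3.3 regions, so the overlap was no larger than that coverage. In 5 pairs the sign of the difference was opposite and in 1 the same. The H3.3 regions of these pairs had adjusted p-values of 0.0851 to 0.11 in the authors' deposited table, none at or under 0.05. Of all 667 H3.3 regions only 20 were at or under 0.05. For H3.3, gained and lost are therefore signs of the means. The CATCH-IT region at Mthfd1, a folate enzyme, was gained with 1.34, 6.92 and 5.44, while H3.3 was 5.90, 4.39 and 6.94 after KCl and 18.9, 17.4 and 15.5 in controls. At Rnf19b, a ubiquitin ligase, CATCH-IT was gained and H3.3 lost, and at Atp9b, a flippase, CATCH-IT was lost and H3.3 gained. The tables were normalised apart, so levels are not compared between them. By gene, 355 of the 452 genes with an H3.3 region also had a CATCH-IT region, 78.5% of the H3.3 genes and 3.89% of the CATCH-IT genes. The H3.3 genes had a median span of 76.4 kb, and of all protein-coding genes 69.7% of those of 30 to 100 kb and 93.3% of those of 100 to 300 kb had a CATCH-IT region.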

How the data were processed

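Regions were taken as deposited from the authors' table of CATCH-IT differences between KCl at 5 hr and control at 5 hr. The submitters' processing notes name Bowtie 0.12.7 and bedtools 2.16.2, with mm9 as the genome build. No source used here names the region caller. Per the file headers, each region held 3 normalised counts per group packed without library names, and their group mean, a coverage signal deposited by the authors. The authors also deposited a ratio of each mean to input, infinite where input had no read, a log2 fold change of KCl over control, and a p-value with its adjusted form. No test of these regions was added, since they had been chosen on the same libraries. No per-sample column was set aside (0).

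Direction was taken from the group means. Reads were recovered as the value divided by the library's step (100% whole within 0.1). Library totals were not used here; the listed regions held 128827 to 263809 reads per library. Genes are the authors' names at promoter and gene body regions. Chromosome lengths, base composition, gene spans and places came from mm9 (NCBIM37) with GENCODE vM1, in tiles of 380 bp. Gene lists (20, with older symbols matched through RefSeq names) counted regions overlapping a GENCODE span by at least 1 bp, and 2 names without a match in adhesion genes and 1 housekeeping name were left out. Intervals are exact Clopper-Pearson at 95%. Python 3.11.15, numpy 2.4.6, pandas 2.3.3 and scipy 1.17.1 were used, and the counting steps were tested on simulated data.

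Genes were named by rules: the 12 with most regions and ties, those with 6 or more regions of 1 direction, the 10 densest with 5 or more regions, per direction the 6 regions with the smallest adjusted p and no overlap between groups, and up to 4 members per list with the most regions. Names outside these rules (Gpc6, and single regions described for list members) were chosen after their values were seen. The members, lists and rules were chosen with earlier results of these data known. Alternatives tried were minimum support, leaving out each library, joining of near regions, input ratios, summed reads, and settings added after seeing the data.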

Additional observations from a re-analysis of the deposited data

How the results depend on the processing

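Across 6 settings with each library left out in turn, the gained share was 57.1 to 57.3%, the density of chromosome X over autosomes 0.455 to 0.457, genes with a region 9123 to 9128, and single-direction genes 11 in each. These could hardly move, since the list was chosen on these libraries and the other group was at 0 in 97.7% of regions. An adjusted p limit of 0.05, 2 of 3 values above 0, no overlap between groups, autosomes only, summed reads, joining within 1 kb and N bases kept each of these within its interval or within 1.5 times, where they applied. Intergenic regions carried no gene name, so including them changed nothing. Direction from ratios to input gave 63.6% gained, over the 4601 regions with finite ratios less those tied. By the means 2929 of those 4601 were gained, so the higher share reflects which regions had finite ratios. With a minimum of 5 or 8 regions 35 and 2 genes had 1 direction. H3.3 pairs numbered 30 when centres within 1 kb counted. Settings chosen after seeing the data moved more. At least 3 reads in every library gave 43.1% gained, 5976 genes and 7 single-direction genes. A value of at least 2 in every library, which a first control library with 6 reads (1.89) does not reach, gave 73.2% gained and 27 such genes. No library at a multiple of 6 reads gave 91.3%, 3974 genes and 27. An adjusted p of 0.00001 or less gave 84.1%, 5469 genes and 39. The cause was not tested. No paired analysis was possible because the packed values carry no library names. Few reads per region limit every single region.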
